A study of Mus musculus with 10 samples.

Results

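*Ecrg4*, listed as 1500015O10Rik in the deposited tables, was examined in single cells of the mouse hind limb. It is 1 of 29183 genes listed for both lineages of the study. The gene was chosen by its level in *Grem1*-lineage cells with more *Clu* and *Cilp* than *Cnmd* transcripts, so its level there is given below as a description, without a test. Both lineages were C57BL/6 mice with a TdTomato reporter. *Grem1-TdT* mice carried a tamoxifen-inducible Cre driven from *Grem1* and received tamoxifen chow for 2 weeks from an age of 5 to 6 weeks. Articular cartilage (AC) and growth plate (GP) were excised from them, digested with collagenase II and sorted for TdTomato. *Lepr-TdT* mice of matching age carried a constitutive Cre driven from *Lepr*. Their whole bones were crushed and digested with collagenase I, and cells were sorted for TdTomato after exclusion of CD45, Ter119 and CD31. The sources used here do not give the number of mice behind a plate, nor whether a *Grem1*-lineage plate holds AC cells, GP cells or both.

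*Ecrg4* encodes augurin, a small precursor protein that is anchored at the cell surface or secreted and that can be cut by furin and by thrombin. It has been described in chondrocytes of articular cartilage, in the choroid plexus and in other epithelia, and it is often silenced in tumours. Its fragments have been reported to associate with innate immune receptors, among them the TLR4 complex with CD14. *Clu* encodes the secreted chaperone clusterin, *Cilp* a matrix protein of the intermediate cartilage layer, and *Cnmd* chondromodulin, an anti-angiogenic protein of growth cartilage.

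In GENCODE M21 (GRCm38) the gene lies on chromosome 1 from 43730602 to 43742578 on the plus strand and is protein coding, with 1 transcript of 902 bases in 4 exons. An antisense gene, *Gm29155* (chromosome 1, 43741961 to 43743895, minus strand), overlaps its end without sharing exon bases. *Gm29155* had 3 UMIs (unique molecular identifiers, which count each captured RNA molecule once) in articular-like cells and 0 UMIs in all other cells kept, where a count of 0 allows up to 3. The 250 bases before the *Ecrg4* start (RefSeq, GRCm38.p6, chr1:43730352-43730601, plus strand, 5′ to 3′) are shown because they are the region from which the transcript measured here starts.
Ecrg4 promoter: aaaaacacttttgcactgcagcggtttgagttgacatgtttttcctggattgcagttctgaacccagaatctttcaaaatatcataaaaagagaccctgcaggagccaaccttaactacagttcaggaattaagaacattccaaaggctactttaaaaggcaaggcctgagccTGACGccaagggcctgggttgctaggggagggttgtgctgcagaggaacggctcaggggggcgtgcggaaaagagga

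The capitals mark TGACG, the core of the cAMP response element that CREB-type factors read, which was searched on both strands and found once, with its first base 77 bases before the start. This motif is present in 17.8% of the 32851 promoter windows of the same length. The FOXO motif GTAAACA is not in this window on either strand and is found in 3.17% of the promoter windows. The same holds for the SOX motif ACAAT with 27.7% and for the GC box GGGCGG with 32.7%. It also holds for the motif of the CCAAT box with 33.8% and for the TATA box, searched as TATAAA, with 12.4%. No factor was measured at this site.

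A cell was kept with at least 350 detected genes, which left 684 of 768 wells on 8 *Grem1*-lineage plates and 160 of 162 wells on 2 *Lepr*-lineage plates. The plates are the replicates, and p-values measure only the spread between plates, which may be technical. *Grem1*-lineage plates held 133289 to 179071 UMIs over the shared genes and *Lepr*-lineage plates 59981 and 64310. The wells use 1 set of 96 barcodes, of which 70 occur on all plates. Among the *Grem1*-lineage cells, 376 had more *Clu* + *Cilp* than *Cnmd* UMIs and are called articular-like, and 308 did not. The name was compared with genes that did not split the cells. Their lists were chosen with earlier results of these data known, so this is no independent check. Of the 21 genes of the articular and superficial zone list, 17 are among the shared genes, and *Prg4* is not. These 17 summed to 131659 to 170057 CPM (UMIs of the gene per 1000000 UMIs of the shared genes) per plate in articular-like cells and to 16658 to 51367 CPM in the other cells. *Cytl1*, a cytokine-like protein gene of chondrocytes, made up most of this sum. The 16 genes without it summed to 7835 to 10120 CPM against 723 to 1654 CPM. *Gas1*, a growth arrest gene, had 3162 ± 545 CPM against 139 ± 52.7, and *Foxo1*, a transcription factor that maintains cartilage, had 407 ± 72.9 against 144 ± 83.5 (SD, n = 8 plates each). Of the 23 growth plate and hypertrophic genes, 16 are among the shared genes. In contrast, these summed to 29077 to 48098 CPM in articular-like and to 95431 to 132871 CPM in the other cells. Without *Col2a1*, the main cartilage collagen, they summed to 15950 to 27017 and 41348 to 51600 CPM. Not every member followed its list. *Col10a1*, the collagen of hypertrophic cartilage, was higher in articular-like cells on 7 of 8 plates (5293 ± 3075 against 1921 ± 933 CPM). *Crtac1*, also of the articular list, had 0 UMIs in articular-like cells. *Lepr*-lineage plates were marked by *Cxcl12* (20339 and 27442 CPM) and *Adipoq* (3856 and 6585 CPM), as marrow stroma is. Osteoblast genes reached 10% of the UMIs in 6 *Grem1*-lineage cells, 3 of them articular-like by the rule, and these 3 carried 2 or 3 *Ecrg4* UMIs each.

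*Ecrg4* was found in nearly every *Grem1*-lineage cell, at a level that was several-fold higher in articular-like cells. On plates 1, 2, 4, 5, 6, 7, 8 and 9 it had 17261, 12209, 11061, 16358, 21651, 22741, 19672 and 17898 CPM in articular-like cells. In the other cells of the same plates it had 3226, 2000, 2852, 3043, 3751, 4277, 5804 and 4411 CPM. The groups do not overlap, since the lowest articular-like plate (plate 4) lies above the highest plate of the other cells (plate 8). The means were 17356 ± 4144 and 3671 ± 1167 CPM (SD, n = 8 plates). Within a plate the ratio was 4.91 ± 0.99, from 3.39 on plate 8 to 6.11 on plate 2. The gene was chosen for this contrast, and no test is given. With *Clu* alone or *Cilp* alone against *Cnmd* as the line, the mean log2 ratio was 1.85 or 1.83 rather than 2.27. 

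**Figure D1:**
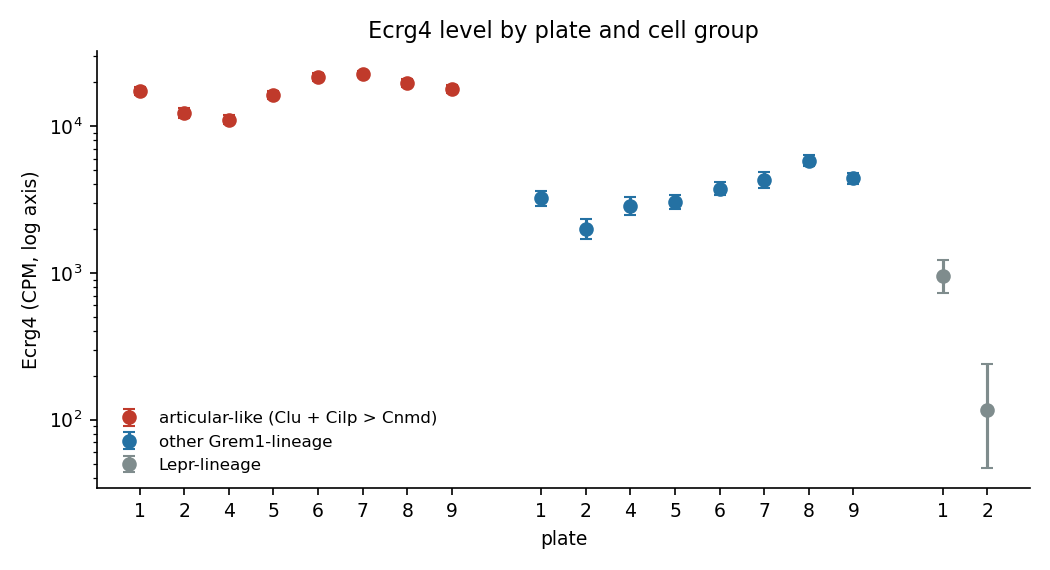
*Ecrg4* CPM (log axis) by plate in articular-like cells, other *Grem1*-lineage cells and *Lepr*-lineage cells, with bars for the exact 95% Poisson interval. All 8 articular-like points (11061 CPM or more) lie above all points of the other cells (5804 CPM or less), and both *Lepr*-lineage points lie below 1000 CPM.

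Per cell, the median was 15 *Ecrg4* UMIs in articular-like cells at a median depth of 1202.5 UMIs and 7 in the other cells at 2088.5 UMIs. A UMI was present in 373 of 376 articular-like cells (99.2%, exact 95% interval 97.7% to 99.8%) and in 300 of 308 other cells (97.4%, 94.9% to 98.9%). These shares are near their ceiling and do not separate the groups. Each cell was then thinned to 272 UMIs, the 10th percentile of UMIs per *Lepr*-lineage cell, and 16 shallower *Lepr*-lineage cells were left out. The shares were then 91.0% (87.6% to 93.7%) of 376 articular-like, 55.2% (49.5% to 60.8%) of 308 other and 9.03% (4.89% to 14.9%) of 144 *Lepr*-lineage cells. These intervals and all others on counts cover counting error only.

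The SD between plates was 4144 CPM in articular-like cells and 1167 CPM in the other cells, where the counting of UMIs alone gives 545 and 210 CPM. Each plate held only 30 to 63 cells of a group, and these varied widely, so that the draw of cells adds to the spread between plates. Plates with much *Ecrg4* in articular-like cells tended to have much in the other cells (8 plates, Pearson r = 0.691, exact permutation p = 0.0565, Spearman rho = 0.786, exact permutation p = 0.0279, two-sided, 1 relation computed). Without plates 4 and 2, which lie farthest from the median of the articular-like cells, r was 0.382 (n = 6, exact permutation p = 0.465). Leaving out the farthest plates narrows the range, which by itself can lower r. These 6 plates therefore cannot show whether the relation rests on plates 4 and 2.

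The level changed over a range of cells and not at the line alone. In 121 cells with *Cnmd* at least 61 UMIs above *Clu* + *Cilp*, *Ecrg4* was at 2729 CPM (exact 95% interval 2565 to 2901). In the 19 cells just outside the line, with a difference of -2 to 0 UMIs, it was at 9055 CPM (7885 to 10349). In the 12 cells just inside, with a difference of 1 or 2 UMIs, it was at 8965 CPM (7588 to 10520). The intervals on the 2 sides of the line overlap almost fully. From 11 UMIs upward the level was 18653, 17597 and 18894 CPM in groups of 70, 129 and 105 cells. Cells near the line had fewer UMIs (medians of 998 and 1051) than those far on the *Cnmd* side (3061), and a small difference in UMIs is easier to reach in a shallow cell. The part of depth in this order was not tested.

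**Figure D2:**
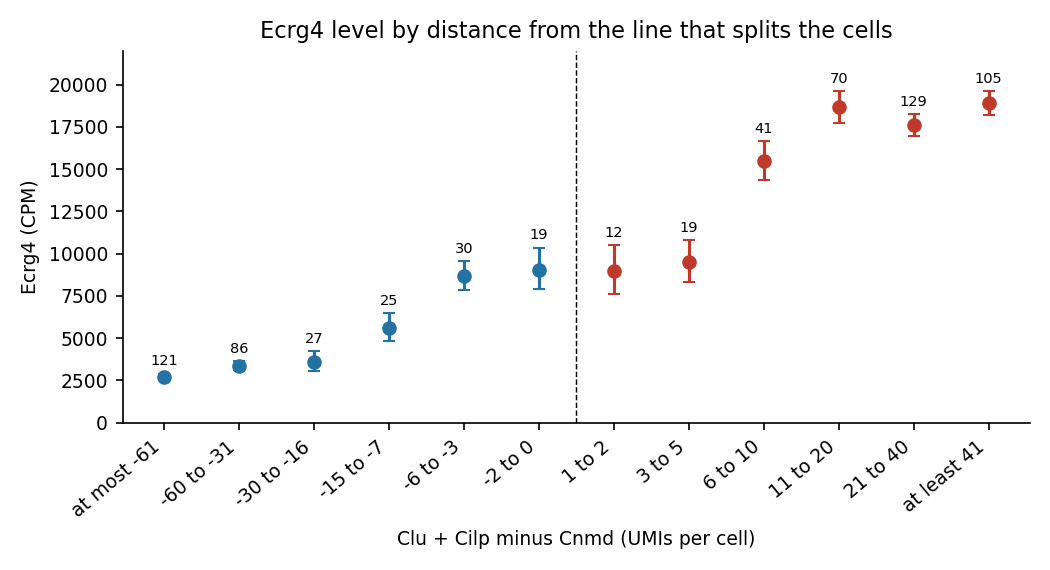
*Ecrg4* CPM in *Grem1*-lineage cells grouped by *Clu* + *Cilp* minus *Cnmd* UMIs, with exact 95% Poisson intervals and the number of cells above each point (dashed line: the split into other cells, blue, and articular-like cells, red). The level rises from 2729 CPM at the far left to 9055 CPM at the line and to 18894 CPM at the far right.

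*Ecrg4* was scarce in *Lepr*-lineage cells. Plate 1 had 61 UMIs in 74 cells (949 CPM, exact 95% Poisson interval 726 to 1218) and plate 2 had 7 UMIs in 86 cells (117 CPM, 46.9 to 240). Both lie below each of the 8 plates of either *Grem1*-lineage group. In the sums per plate the log2 fold change of *Lepr*- against *Grem1*-lineage plates was -4.60 (SE 0.71, edgeR). The gene was chosen by its level across lineages too, and no p is given for it. Of 2944 genes in the same fit 853 passed the threshold (29.0%), 495 of them lower in the *Lepr* lineage (16.8%). Lineage, dissected tissue and digestion cannot be told apart in this comparison. The fold change was -3.82 without *Lepr* plate 2 and -6.89 without *Lepr* plate 1.

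A single *Lepr*-lineage cell of plate 1 held 31 of the 68 UMIs. It had 1861 UMIs in all, with 36 of *Clu*, 15 of *Cilp*, 0 of *Cnmd*, 151 of *Cytl1* and 14 of *Atf7ip*. Its *Ecrg4* share of 1.67% lies between the 10th and the 90th percentile of articular-like cells (0.461% to 3.42%). The cell with the next highest count (5 UMIs of 1146) also had *Cytl1* (54 UMIs) and *Cilp* (11 UMIs). No other *Lepr*-lineage cell had more than 3 *Ecrg4* UMIs. Without the leading cell the lineage was at 302 CPM (213 to 417), which leaving out its highest cell could only lower. In this lineage 131 of 160 cells lay above the *Clu* + *Cilp* line, among them the 3 with the most *Ecrg4*. These 131 cells were at 585 CPM (451 to 747), leading cell included. The 29 others held 4 *Ecrg4* UMIs (268 CPM, 73.1 to 687), and the 2 intervals overlap. A *Cxcl12* UMI was present in 159 of 160 cells, so its presence does not divide them. The 3 cells with the most *Ecrg4* had 5 *Cxcl12* UMIs of 1861, 9 of 1146 and 4 of 1003, where the lineage as a whole had 2954 of 124291.

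Within articular-like cells *Ecrg4* was compared across other splits of the same cells, as a description over 8 plates. Cells with a UMI of *Col10a1* were higher in *Ecrg4* on 8 of 8 plates (19241 ± 4351 against 13169 ± 2336 CPM, SD). Their median depth was 1292 against 1067 UMIs. For *Foxo1* the order held on 5 of 8 plates (17824 ± 3853 against 17147 ± 4939 CPM), and for *Cd200*, a surface protein, also on 5 of 8 (18068 ± 5137 against 16271 ± 5327 CPM). Cells with *Acan*, the gene of the main cartilage proteoglycan, above their plate's median were higher on 6 of 8 plates (21596 ± 6957 against 15171 ± 3973 CPM). In the other cells, those with a UMI of the growth factor receptor *Fgfr3* were higher on 3 of 8 plates (3414 ± 1223 against 4028 ± 1510 CPM). For *Foxo1*, *Cd200*, *Acan* and *Fgfr3* the order was thus not the same on all plates.

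Cells of 1 group and plate differed widely in *Ecrg4* even at equal depth. Each cell was thinned to 796 UMIs, which left 322 articular-like and 294 other cells, with 54 and 14 shallower cells left out. Thinned counts ran from 0 to 84 in articular-like cells (median 11) and from 0 to 49 in the other cells (median 2). The variance over the mean (Fano factor), which is 1 for Poisson counts, was 9.47 ± 5.23 in articular-like cells (SD, n = 8 plates), with 3.55 on plate 4 as the lowest and 19.2 on plate 7 as the highest. In the other cells it was 4.79 ± 3.85, with 1.5 on plate 7 as the lowest and 12.5 on plate 8 as the highest. The Fano factor grows with the mean, which was 14.7 ± 3.65 and 3.29 ± 1.29 UMIs. The squared coefficient of variation beyond counting was 0.543 ± 0.262 in articular-like and 1.02 ± 0.744 in the other cells, and these ranges overlap. Among 79 genes with a mean of at least 1 thinned UMI, *Ecrg4* ranked 35th in articular-like cells by this measure, where the median gene had 0.455. It ranked 17th of 92 in the other cells, where the median gene had 0.292. The spread of *Ecrg4* is thus close to that of the middle of all such genes in articular-like cells and in the upper part in the other cells.

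**Figure D3:**
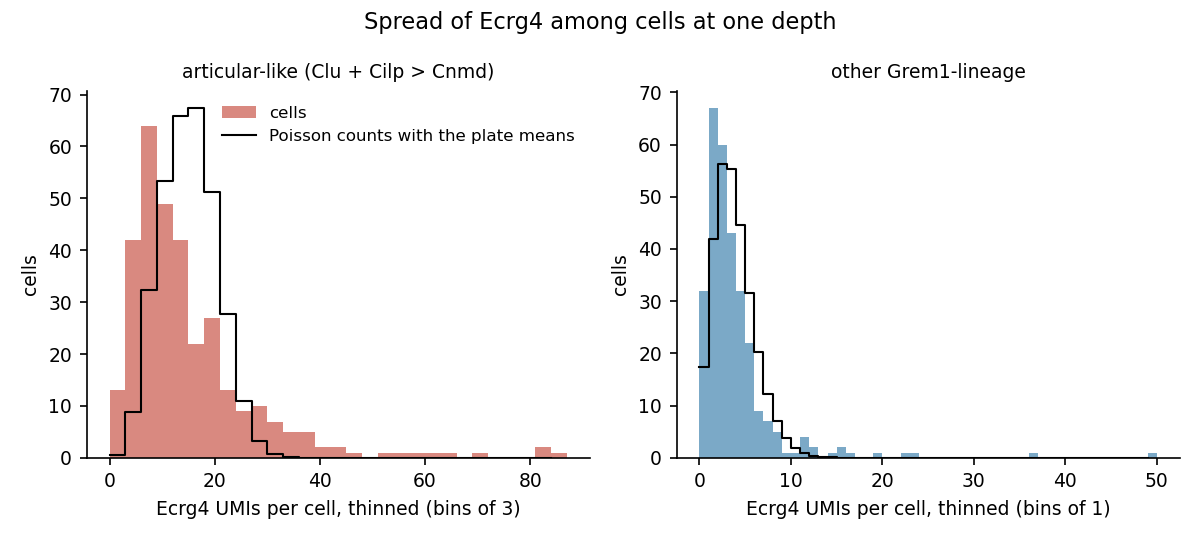
Number of cells by thinned *Ecrg4* UMIs per cell (796 UMIs per cell) in articular-like cells (left) and other *Grem1*-lineage cells (right), with the line that Poisson counts with each plate's mean would give. Both histograms are wider than the line, with a mode below it and a tail up to 84 and 49 UMIs.

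Cells without *Ecrg4* were rare in the thinned counts, with 5 of 322 articular-like cells and 32 of 294 other cells at 0. By plate this was 1.42 ± 1.64% of articular-like cells, where Poisson counts of the same means give 0.00248 ± 0.00513%. In the other cells it was 11.2 ± 7.23%, where Poisson counts give 6.37 ± 6.57%. The richest cells, taken as the upper 10% of each group, held 33.4% of all *Ecrg4* UMIs of articular-like cells (38 cells) and 30.5% of those of the other cells (31 cells). For *Lepr*-lineage cells they held 82.4% (16 cells).

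To ask which genes vary with *Ecrg4*, the articular-like cells of each plate were divided at the plate's median of thinned *Ecrg4* UMIs, and UMIs were summed per plate and side. *Ecrg4*-high cells had 16697 to 38013 CPM of *Ecrg4* on the 8 plates and *Ecrg4*-low cells 6920 to 11577 CPM, which the division itself fixes. In a fit with the plate as a block, 2 of 295 genes passed the threshold (0.678%), both higher in *Ecrg4*-high cells, and 28 had an unadjusted p under 0.05 (edgeR quasi-likelihood test). DESeq2 called 1 gene. *Clu*, *Cilp* and *Cnmd* are among the 295 genes of the fit, but no p is given for them, since they chose the cells.

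*Atf7ip*, the gene of a chromatin protein that partners the histone methyltransferase SETDB1, had the smallest adjusted p. Its CPM in *Ecrg4*-high cells were 4251, 2144, 2638, 3030, 6239, 5624, 5078 and 2827 on plates 1, 2, 4, 5, 6, 7, 8 and 9. In *Ecrg4*-low cells they were 1180, 1559, 1184, 979, 2333, 1105, 2022 and 923. It was higher on 8 of 8 plates, although the ranges overlap between plates. Its log2 fold change was 1.56 (SE 0.19, adjusted p = 0.00013, edgeR). This call held in each alternative run, with log2 fold changes of 1.42 to 2.06 and adjusted p of 2.2e-12 to 0.0022. *Cytl1* was also higher on 8 of 8 plates, with 158791 ± 14727 against 136679 ± 12524 CPM, and its log2 fold change was 0.29 (SE 0.06, edgeR adjusted p = 0.040). The *Cytl1* call was lost in 11 alternatives, among them those without plate 1, 6, 7 or 8 (log2 fold changes of 0.29, 0.24, 0.28 and 0.28), and over all alternatives its adjusted p ran from 0.0049 to 0.998. Without the 3 articular-like cells rich in osteoblast transcripts, which all lay on the low side, only *Atf7ip* passed, and *Cytl1* kept a log2 fold change of 0.28 (edgeR adjusted p = 0.063).

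Genes of the fixed lists seldom passed. The 17 listed articular genes summed to 151007 to 187044 CPM in *Ecrg4*-high and 122614 to 160570 CPM in *Ecrg4*-low cells, higher in the former on 8 of 8 plates. This order is that of *Cytl1*, since the 16 genes without it summed to 7148 to 10300 and 7902 to 10337 CPM, higher in *Ecrg4*-high cells on 2 of 8 plates. In the articular list 1 of 8 tested genes (*Cytl1*) was called, with a median log2 fold change of 0.09 against -0.01 over all 295 genes. The growth plate list had 0 of 9 calls (median 0.06) and the list of other cartilage matrix genes 0 of 9 (median 0.20). The sum of the growth plate list was higher in *Ecrg4*-high cells on 4 of 8 plates. Without *Col2a1* it was 15058 to 28054 CPM in *Ecrg4*-high and 15266 to 26913 CPM in *Ecrg4*-low cells, higher in the former on 7 of 8 plates. The genes named next did not pass. *Acan* had a log2 fold change of 0.50 (SE 0.15, adjusted p = 0.11), *Col10a1* 0.88 (SE 0.25, adjusted p = 0.084) and *Chad*, a cell-binding matrix protein gene, 0.42 (SE 0.11, adjusted p = 0.083, edgeR for all). *Cst3*, the gene of the protease inhibitor cystatin C, had 0.43 (SE 0.10, edgeR adjusted p = 0.056). Other list members went the other way, such as *Col2a1* (-0.18, SE 0.14, adjusted p = 0.69), *Col11a2* (-0.29, SE 0.16, adjusted p = 0.62) and *Abi3bp* (-0.43, SE 0.18, adjusted p = 0.40, edgeR for all). Positive log2 fold changes were found for 5 of 9 tested growth plate genes and 5 of 8 articular genes. All 7 immediate early genes, which mark the response to tissue digestion, had a positive log2 fold change and 0 passed (median 0.18). Their sum was 16274 to 26414 CPM in *Ecrg4*-high and 13945 to 27687 CPM in *Ecrg4*-low cells, higher in the former on 5 of 8 plates. No blood, endothelial or marrow stromal gene was tested, since their counts were too low. Osteoblast genes summed to 664 to 3679 CPM in *Ecrg4*-high and 971 to 108091 CPM in *Ecrg4*-low cells, higher in the former on 2 of 8 plates, and without the osteoblast-rich cells the log2 fold change of *Atf7ip* was 1.56.

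**Figure D4:**
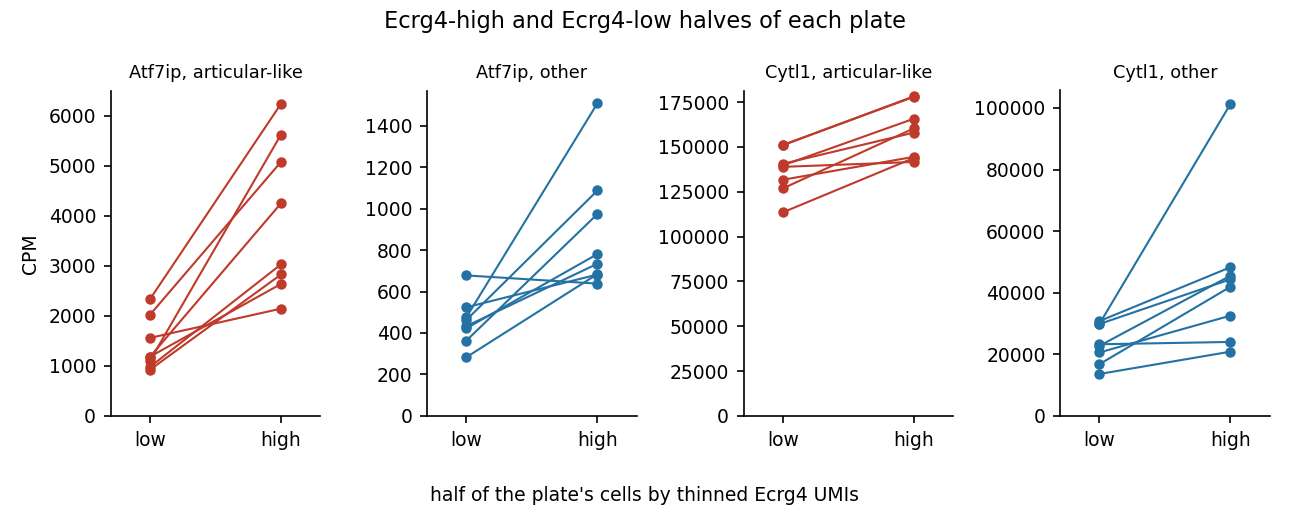
CPM of *Atf7ip* and *Cytl1* in the *Ecrg4*-low and *Ecrg4*-high cells of each plate (lines join the same plate), for articular-like (red) and other *Grem1*-lineage cells (blue). *Atf7ip* and *Cytl1* lines rise on 8 of 8 plates in articular-like cells, and on 7 of 8 and 8 of 8 plates in the other cells.

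The other *Grem1*-lineage cells of the same plates, which that fit did not use, were divided in the same way. *Clu* was higher in *Ecrg4*-high cells on 7 of 8 plates (1595 ± 697 against 1265 ± 485 CPM). For *Clu*, *Cilp* and *Cnmd*, which are among the 622 genes of this fit, no p is given. *Cilp* was also higher on 7 of 8 plates (839 ± 341 against 705 ± 293 CPM), and *Cnmd* on 4 of 8. Since the median of *Ecrg4* was only 1 to 4 thinned UMIs in these cells, many lay at it (5 to 13 per plate). *Ecrg4*-low cells had the higher median depth on most plates, such as plate 5 (2587.5 against 1856 UMIs). Plate 7 went the other way (1815 against 2329 UMIs). The part of depth and of *Clu* and *Cilp* in the calls below was not tested. Of 622 genes, 5 passed (0.804%), 4 of them higher in *Ecrg4*-high cells, and 56 had an unadjusted p under 0.05. *Atf7ip* had a log2 fold change of 0.98 (SE 0.20, adjusted p = 0.026, higher on 7 of 8 plates) and *Cytl1* one of 0.87 (SE 0.17, adjusted p = 0.023, 8 of 8 plates, edgeR for both). *Dcn*, the gene of the small proteoglycan decorin, had 3876 ± 1788 against 1923 ± 681 CPM (log2 fold change 0.98, SE 0.19, edgeR adjusted p = 0.023, 7 of 8 plates). *Egr1*, an immediate early gene, had 4175 ± 1418 against 2602 ± 1186 CPM (0.79, SE 0.13, edgeR adjusted p = 0.010, 8 of 8 plates). Its call was lost between cells divided by *Ecrg4* share without thinning (log2 fold change 0.42, adjusted p = 0.44), between the outer groups by share (0.66, adjusted p = 0.088) and without the block (0.71, adjusted p = 0.90). The other 6 immediate early genes did not pass. *Gm24601*, named after its value was seen, was lower on 8 of 8 plates (log2 fold change -0.94, SE 0.20, edgeR adjusted p = 0.027), a call lost in 9 of 19 alternatives, among them another random seed for the thinning (adjusted p = 0.069) and those without plate 2, 6, 8 or 9 (log2 fold changes of -0.90, -0.94, -0.99 and -0.73). Blood genes summed to 0 to 562 CPM in *Ecrg4*-high and 0 to 8649 CPM in *Ecrg4*-low cells, higher in the former on 0 of 8 plates, and osteoblast genes to 825 to 12880 and 618 to 37869 CPM, higher on 3 of 8. The part of blood transcripts in these calls was not tested. The sum of the articular list was higher in *Ecrg4*-high cells on 8 of 8 plates (21908 to 103881 against 14219 to 32013 CPM), most of it *Cytl1*. Without *Cytl1* it was 1043 to 2609 against 606 to 1240 CPM, also higher on 8 of 8 plates, and of the 2 members tested only *Cytl1* passed. Plate 8 stood out, where *Cytl1* was at 101272 CPM in *Ecrg4*-high and 29866 CPM in *Ecrg4*-low cells. Without plate 2 only *Egr1* passed, without plate 8 there were 3 calls (*Cytl1*, *Dcn* and *Egr1*), and without plate 5 there were 10. Without the plate as a block 0 genes passed with edgeR and 33 had an unadjusted p under 0.05, while DESeq2 with the block called 4. Without the 3 other cells rich in osteoblast transcripts 9 genes passed, the same 5 and, lower, *Bglap*, *Bglap2*, *Bglap3* and *Cox7b*.

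The difference of the change between articular-like and other cells was tested in 1 fit. It was 0.68 for *Atf7ip* (SE 0.28, adjusted p = 0.45) and -0.48 for *Cytl1* (SE 0.20, adjusted p = 0.45, edgeR), which do not pass. Of 531 genes 2 passed (0.377%), *Abi3bp* and *Bglap3*.

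The number of *Atf7ip* UMIs per *Ecrg4* UMI, a ratio of counts and not of levels, was taken from UMIs pooled over cells and not for single cells. In articular-like cells this ratio differed less between plates than either gene did, and less between groups of cells by *Ecrg4* count than *Atf7ip* did. It was 0.147 ± 0.029 over the 8 plates, from 0.101 on plate 9 to 0.192 on plate 6. In 50 cells with 1 to 5 *Ecrg4* UMIs it was 0.186, and in 46 cells with 41 or more it was 0.135. Thus *Atf7ip* went from 610 CPM (exact 95% interval 414 to 866) to 5534 CPM (5015 to 6093) between these cells, while *Ecrg4* went from 3286 to 41016 CPM. The grouping itself fixes this range of *Ecrg4*. Since *Ecrg4* is also the lower part of the ratio, grouping by it can raise the ratio in the lowest group and lower it in the highest. Median depth was 777.5 UMIs in the former and 1495 in the latter. The part of both in these ratios was not tested. The 3 articular-like cells without *Ecrg4* had 0 *Atf7ip* UMIs among 4237, which allows up to 3. In the other cells the ratio was 0.177 ± 0.056 (n = 8 plates). It was 0.218 in 114 of these cells with 1 to 5 *Ecrg4* UMIs and 0.0894 in 3 cells with 41 or more, a wider range than in articular-like cells. The 8 other cells without *Ecrg4* held 3 *Atf7ip* UMIs (322 CPM, exact 95% interval 66.3 to 940). In all, *Atf7ip* was at 606 ± 113 CPM in the other cells against 2558 ± 858 CPM in articular-like cells. *Lepr*-lineage cells had higher ratios, with 63 *Atf7ip* against 61 *Ecrg4* UMIs on plate 1 and 36 against 7 on plate 2 (ratios of 1.03 and 5.14). The genes lie on different chromosomes, *Atf7ip* on chromosome 6 from 136506167 to 136610862 (plus strand, GRCm38). Their annotated transcripts share 0 stretches of 20 bases on either strand. What the counted *Atf7ip* reads cover was not analysed here.

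Correlations across articular-like cells also had *Atf7ip* in the lead. The measure was Pearson's r on the log scale, within each plate and then averaged over the 8 plates, for genes with a UMI in at least 20% of the cells. Cells of a plate share its library, and all genes of a cell share its depth and total, so the values are a description. In 376 articular-like cells the median of 618 genes was -0.01. *Atf7ip* had a mean r of 0.53 (SD 0.19, from 0.19 to 0.77 on single plates). It was followed by *Cst3* (0.31), *Cytl1* (0.29), *Chad* (0.28), *Acan* (0.23), *Fxyd3*, an ion pump regulator (0.20), *Col10a1* (0.20), *Cdo1*, a cysteine dioxygenase (0.19), *Dcn* (0.18) and *Cilp* (0.17). Only 6 of the 618 genes (0.971%) had r above 0 on all plates, and 5 of the leading 10 are among them (*Atf7ip*, *Cst3*, *Cytl1*, *Chad* and *Cdo1*). In thinned counts, with all cells at 1 depth, *Atf7ip* had 0.55, *Cst3* 0.25, *Chad* 0.24 and *Cytl1* 0.23. There *Acan* had 0.11 and *Fxyd3* and *Cdo1* had 0.13, and of the 10 genes only *Atf7ip* and *Cytl1* were above 0 on all plates. The lowest were *Gm10275* (-0.20), *Etfa* (-0.19), *Col2a1* (-0.17), *Gm5614* (-0.17) and *Col1a1* (-0.15). *Clu*, *Cnmd*, *Foxo1*, *Creb5* and *Gas1* were near 0 with mean r of 0.11, 0.00, -0.03, 0.04 and 0.04.

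**Figure D5:**
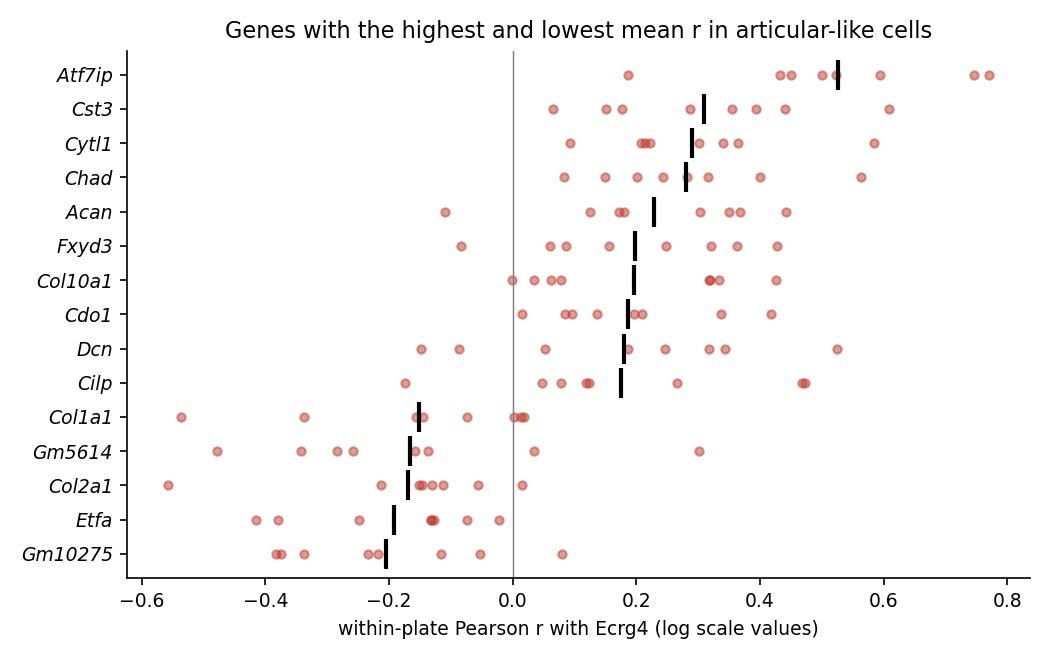
Within-plate Pearson r with *Ecrg4* in articular-like cells (points: 8 plates, bars: mean) for the 10 genes with the highest and the 5 with the lowest mean. *Atf7ip* leads with a mean of 0.53, and the other 9 of the upper group have means of 0.17 to 0.31 with wide overlap between them.

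The order below *Atf7ip* is not resolved, since the SD over plates (0.13 to 0.23 for the other 9 genes) exceeds the gaps between neighbours. In 308 other cells the leading genes were *Atf7ip* (0.42), *Cytl1* (0.37), *Chad* (0.26), *Cpe*, a carboxypeptidase that processes prohormones (0.26), and *Cst3* (0.25). In thinned counts the order was another, with *Cytl1* at 0.40, *Dcn* at 0.36 and *Atf7ip* at 0.29. Over all 684 *Grem1*-lineage cells they were *Cytl1* (0.66), *Atf7ip* (0.61), *Cilp* (0.59), *Dcn* (0.55) and *Clu* (0.54). These pooled values include the difference between articular-like and other cells, and accordingly *Col2a1* (-0.52) and *Cnmd* (-0.50) were far below 0. *Cilp*, *Clu* and *Cnmd* split these cells, and *Ecrg4* was chosen by its level across that split. The pooled values of these genes therefore restate the choice.

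Genes for the processing and the reported partners of augurin were measured only in part, with 6 of the 14 members of the list among the shared genes. *Cd14*, the co-receptor of TLR4, was at 921 ± 377 CPM in articular-like cells (491 to 1411) and at 107 ± 72.4 CPM in the other cells (16.6 to 207). It was at 1057 and 350 CPM on the *Lepr*-lineage plates, and neither it nor *Furin* passed between lineages (edgeR adjusted p = 0.67 and 0.070). In articular-like cells *Cd14* was at 1236 ± 586 CPM in *Ecrg4*-high and 752 ± 447 CPM in *Ecrg4*-low cells (log2 fold change 0.80, SE 0.22, edgeR adjusted p = 0.083, higher on 6 of 8 plates). *Furin*, the gene of the protease, was at 280 ± 101 CPM in articular-like and 374 ± 182 CPM in the other cells. It was higher in articular-like cells on 3 of 8 plates. *F2r*, a thrombin receptor gene, had 16 UMIs in articular-like cells, 1 UMI in the other cells and 0 UMIs in *Lepr*-lineage cells. *F2*, *F2rl1* and *Cd36* had 2, 0 and 2 UMIs in articular-like cells. *Tlr4*, *Ly96*, *Olr1*, *Scarf1*, *Stab1* and the *Pcsk* genes were not analysed here.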

How the data were processed

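The authors deposited whole-number UMI counts per gene and cell for each lineage, made with UMI-tools, STAR, featureCounts and SAMtools on mm10 per the labels. Of the *Grem1*-lineage table, 29183 complete rows were used, and 1 incomplete row, within which the table ends, was left out. For the *Lepr* lineage 50508 genes were listed, and those not shared were not analysed. Of the gene lists, *Prg4*, *Thbs4*, *Matn3*, *Mia* and *Mmp13* are among the members not analysed. Totals, ranks and counts of genes therefore cover the shared genes alone. The gene, the cell groups and the gene lists were chosen with earlier results of these data known. CPM are relative to all UMIs of the shared genes throughout, without TMM factors, while log2 fold changes are edgeR's after TMM normalisation of the tested genes. UMIs summed per plate were tested with edgeR 4.0.16 in R 4.3.3 (filterByExpr, quasi-likelihood, Benjamini-Hochberg at 0.05), without covariates between lineages and with the plate as a block between *Ecrg4*-high and *Ecrg4*-low cells, whose sums come from the same plate. SE is the log2 fold change over the root of F. DESeq2 1.42.0 was an alternative. Doublets were not called, and leaving out the 5% deepest cells was an alternative. Thinning drew UMIs without replacement. Log values are log(1 + 10000 × UMIs / total). Genes were named by a rule of effect size, of correlation and of list membership, and *Cox7b* and *Gm24601* after their values were seen. Tests were tried on simulated data. The *Ecrg4* row was left out of the tests that it divides.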

Additional observations from a re-analysis of the deposited data

Results flagged for a closer look

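Among the 38 sets of plate values examined for a plate far from the others, 2 had one, where chance gives about 1 in 20. In articular-like cells r between *Col2a1* and *Ecrg4* was -0.56 on plate 9, far below the other plates. Over all *Grem1*-lineage cells r between *Dcn* and *Ecrg4* was 0.32 on plate 4, below the other plates.

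The change from *Ecrg4*-low to *Ecrg4*-high cells differed between articular-like and other cells for *Abi3bp*, a matrix-binding protein gene (difference of log2 fold changes -2.41, SE 0.46, edgeR adjusted p = 0.0083). It had 729 CPM in *Ecrg4*-high and 983 CPM in *Ecrg4*-low articular-like cells, and 181 CPM (47 UMIs) and 45.8 CPM (20 UMIs) in the other cells. For *Bglap3*, the gene of an osteocalcin form, the difference was -7.76 (SE 1.26, edgeR adjusted p = 0.0051). In articular-like cells it rested on 1 UMI in *Ecrg4*-high and 906 UMIs in *Ecrg4*-low cells. Without the cells rich in osteoblast transcripts it was -0.34 (SE 0.76, adjusted p = 0.97), and *Abi3bp* was at -2.36 (SE 0.46, adjusted p = 0.015).

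The 84 *Grem1*-lineage wells with fewer than 350 detected genes, which entered only the alternatives without this minimum, held 392 *Ecrg4* UMIs (9848 CPM, exact 95% Poisson interval 8897 to 10873), with a UMI in 71 wells. Of these 84 wells, 59 had more *Clu* + *Cilp* than *Cnmd* UMIs.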

How the results depend on the processing

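The log2 fold change of *Ecrg4* between lineages kept its direction under each alternative, from -6.89 to -3.82 with single plates left out. With plates 1 and 2 of each lineage alone it was -4.57 with the plate number as a replicate block and -4.09 without it. Nothing in the labels says that these numbers pair the plates (r of the differences of plate 1 and plate 2 across 1458 genes 0.09). The log2 ratio of articular-like over other cells moved by more than 1 SD with *Clu* alone (1.85) and *Cilp* alone (1.83), and was 2.22 to 2.34 with single plates left out. The number of genes called between *Ecrg4*-high and *Ecrg4*-low articular-like cells, 2, became 1 with DESeq2, without the block, without the 5% deepest cells and without the cells rich in osteoblast transcripts. It became 4 with DESeq2 size factors, 5 between the outer groups of cells by *Ecrg4* share, 6 with cells at least 3 UMIs from the line, 15 without the filter, where 9871 genes were tested, and 1 to 7 with single plates left out. For the other cells, 5 calls became 0 without the block, where edgeR gave 33 unadjusted p under 0.05, 3 without thinning, 9 without osteoblast-rich cells, 25 without the filter, and 1 to 10 with single plates left out. The Fano factors were 8.08 to 10.3 and 3.69 to 5.26, and r of *Atf7ip* was 0.49 to 0.57, with single plates left out. The alternatives without the leading *Lepr*-lineage cell, without osteoblast-rich cells and with cells away from the line were chosen after the data were seen. Except where the number of genes or cells changed by construction, the cause was not tested. With a median of 505 UMIs per *Lepr*-lineage cell, single cells with 0 *Ecrg4* UMIs cannot be called negative.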
